A study of Mus musculus with 2 samples.

Results

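The cells described here are the classical monocytes of mouse tumours, 131 barcodes of the 11197 kept from 2 single-cell RNA libraries, 82 in the library labelled wild type for Tdg (Tdg_WT) and 49 in the library labelled Tdg KO (Tdg_KO). They were selected on measured values, the raw counts of unique molecular identifiers (UMIs, each counting 1 captured RNA molecule). A barcode counted as a monocyte with at least 3 of the 6 markers Ly6c2, Ccr2, Plac8, Vcan, Chil3 and Ms4a4c detected and at least 1 UMI of Csf1r, the receptor for the growth factor CSF-1. It was also required to hold at most 2 UMIs of the complement genes C1qa, C1qb and C1qc together, fewer than 10 of Spp1 and Arg1 together, at most 1 of Cd3e, Cd3d and Cd3g together, and 0 of Ncr1, Cd209a and Siglech. Barcodes were kept from 200 detected genes upward, with no more than 10% of their UMIs from mitochondrial genes. The levels of these genes in the monocytes are therefore set by the selection and are given only as a description.

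The product of Tdg, thymine DNA glycosylase, cuts mispaired thymine and oxidised methylcytosine out of DNA, and the series title sets it in p53-deficient cancer. Both libraries come from live CD45+ cells sorted by flow cytometry from subcutaneous KP tumours on day 14 after inoculation, after enzymatic dissociation and a Percoll gradient. The Tdg_WT group is the sample titled KP and the Tdg_KO group the sample titled KPT. The labels give 1 library for each group, no strain, age or number of animals, and do not say whether the tumour cells, the host cells or both carry the genotype. The libraries share 8 cell barcodes, of which 0 belong to monocytes. With 1 library per group no test was possible, so every ratio below compares these 2 libraries, and every interval is a 95% interval for counting error only.

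Classical monocytes are made in the bone marrow and enter inflamed tissue and tumours along the chemokine CCL2, which their receptor CCR2 detects. In tissue they lose Ly6C and differentiate into macrophages or into cells rich in MHC class II that resemble dendritic cells. They carry receptors for microbial and damage signals, and once activated they secrete interleukin 1, tumour necrosis factor and chemokines that draw in further white blood cells.

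The selected barcodes shared a gene programme beyond the rule. Among genes that the rule did not use, the 25 with the highest enrichment over all other kept barcodes in both libraries, ranked by the smaller of their folds in the libraries, were led by F13a1, the coagulation factor XIII A chain, at 514 CPM (UMIs of the gene per 1000000 UMIs of the summed cells) in Tdg_WT and 504 in Tdg_KO against 17.4 and 14.7 in the other barcodes. Paired values below give Tdg_WT first. The inhibitory C-type lectin receptor gene Clec4a1 stood at 197 and 188 CPM, and its relative Clec4a3 at 313 and 253. Thbs1 (thrombospondin 1) stood at 2650 and 2199, Hp (haptoglobin) at 835 and 768, and Mgst1 (a microsomal glutathione transferase) at 337 and 301. Lyz2, the lysozyme of myeloid cells, was the most abundant of the 25, at 19152 and 18667 CPM against 930 and 965 in the other barcodes. Ccl2 itself was among them, at 740 and 1069 CPM, as were the pattern receptor gene Tlr2 (463 and 548) and Cybb, the catalytic subunit of the phagocyte oxidase (1002 and 1272). A cluster of cells set against the rest is no test, and none was made.

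**Figure D1:**
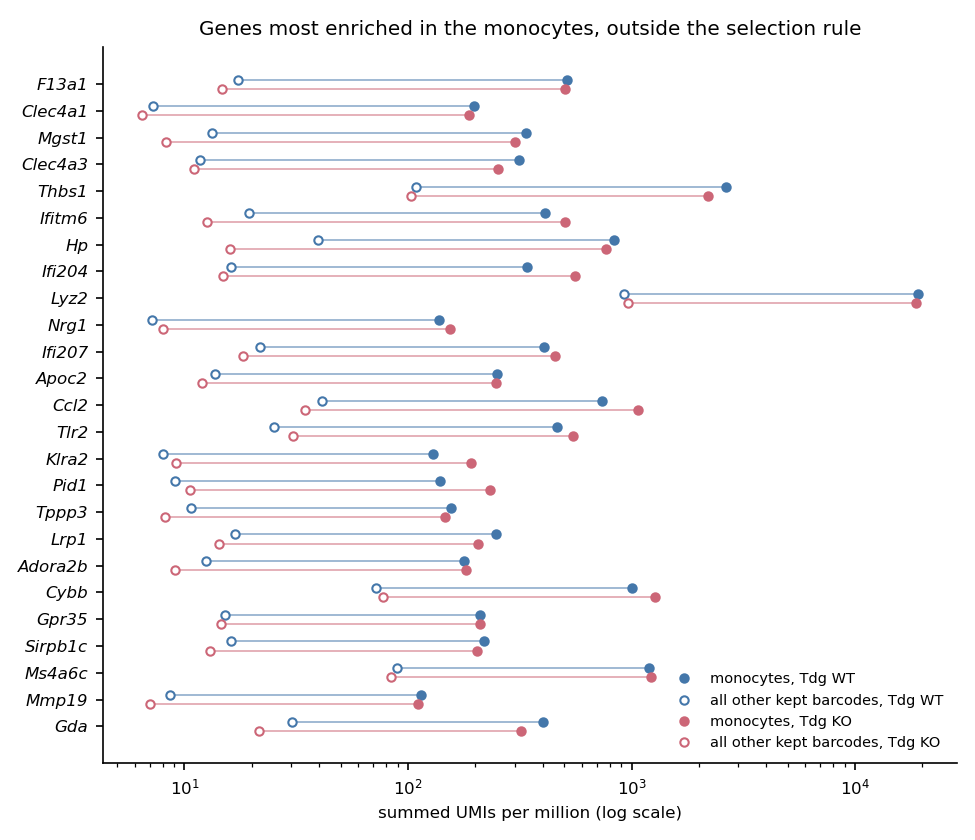
CPM (log axis) of the 25 genes most enriched in the monocytes, outside the selection rule, in the monocytes (filled) and in all other kept barcodes (open) of the Tdg_WT (blue) and Tdg_KO (red) libraries, 1 library each. In both libraries every filled point lies more than 13 times above its open point.

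The label was checked against further markers and against 3 populations cut from the same libraries: C1q macrophages (at least 10 C1q UMIs, 83 in Tdg_WT and 200 in Tdg_KO), type 2 conventional dendritic cells (58 and 61) and neutrophils (362 and 103). Some genes of the programme were also high in these populations. Lyz2 stood at 10811 and 9401 CPM in the macrophages and Ccl2 at 395 and 226, while Hp stood at 513 and 409 in the neutrophils. F13a1 was at 79.6 and 94.4 CPM in the macrophages. Cd14, the lipopolysaccharide co-receptor, stood at 3246 and 3780 CPM in the monocytes and at 678 and 531 in the macrophages. In the type 2 dendritic cells it was at 498 and 636, but in the neutrophils at 2912 and 2558, so it does not set the monocytes apart from neutrophils. Ly6c1, whose protein is also stained by antibodies to Ly6C, had 0 UMIs in the monocytes of both libraries. Ly6g and Retnlg of neutrophils, Clec9a of type 1 dendritic cells, Ms4a1 of B cells and the neutrophil granule genes Elane and Mpo were also at 0. Elane and Mpo had 0 UMIs in the neutrophils too, and Ly6g only 5 and 3, so these 3 genes cannot show whether neutrophil RNA was present. S100a8 and S100a9, at 30797 and 20540 CPM and at 32077 and 22981 CPM in the neutrophils, had 42 and 95 UMIs and 67 and 172 UMIs in the monocytes. Mki67, a gene of dividing cells, had 3 and 9 UMIs in all.

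Some monocytes carried genes of other lineages, in both libraries. The dendritic list had 3 or more genes detected in 13 of 82 monocytes of Tdg_WT and 9 of 49 of Tdg_KO, the neutrophil list in 14 and 9, and the macrophage list in 38 and 24. No monocyte carried 3 or more genes of the T cell or NK cell lists. The summed level of the 11 neutrophil genes was 518 CPM in Tdg_WT and 903 in Tdg_KO, and that of the 12 macrophage genes was 1976 and 2731. In the other kept barcodes the neutrophil genes moved the opposite way, at 474 and 192. Leaving out the monocytes with 3 or more genes of a lymphoid, neutrophil, conventional or plasmacytoid dendritic, basophil, erythroid or non-immune list left 59 and 33, and these are the monocytes said below to carry genes of another lineage. Macrophage genes were not counted for that step, since tissue monocytes share them, and leaving out the monocytes with 3 or more of those left 44 and 25.

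The criteria of the rule differed in how many barcodes lay near them. Of the 131 monocytes, 77 in Tdg_WT and 46 in Tdg_KO had no C1q UMI, 5 and 3 had 1 or 2, and no barcode that passed the other criteria had 3 to 5. All 6 markers were detected in 22 and 13 monocytes, 5 markers in 38 and 23, 4 in 17 and 6, and the minimum of 3 in 5 and 7. The barcodes just inside that limit were unlike the rest, with Cd74, the MHC class II invariant chain, at 16665 and 12229 CPM against 2600 and 2535 in those with all 6 markers. Just outside it, 7 and 3 barcodes with 2 markers had Lyz2 at 357 and 2529 CPM. Csf1r alone left out 26 and 14 barcodes and Cd209a alone 25 and 19, many beside 82 and 49 monocytes. The Cd3 limit left out a further 45 and 59 barcodes that met every other criterion, with a median of 20876 and 17508 UMIs, above the 10340 and 9977 of the monocytes.

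Under this rule monocytes were a smaller share of the immune cells in Tdg_KO. They made up 1.49% of kept barcodes in Tdg_WT (82 of 5504, exact Clopper-Pearson interval 1.19% to 1.85%) and 0.861% in Tdg_KO (49 of 5693, 0.637% to 1.14%), a ratio of 0.578 (0.397 to 0.833). Among barcodes with Csf1r and without T or NK cell genes the shares were 20.3% of 404 and 12.9% of 381. C1q macrophages went the other way, from 1.51% to 3.51% of kept barcodes, so that monocytes were 49.7% of the monocytes and C1q macrophages together in Tdg_WT (82 of 165) and 19.7% in Tdg_KO (49 of 249). Both populations were cut by C1q counts. The Cd3 limit alone left out 45 barcodes of Tdg_WT and 59 of Tdg_KO, and how the share depends on that limit was not tested. When each barcode was first thinned to 2000 UMIs, the ratio of monocyte shares was 0.648 with an interval of 0.411 to 1.01, which includes 1. These are shares of sorted cells, and fewer monocytes cannot be told apart from more cells of other kinds.

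Within each library the monocytes formed a range from Ly6c2-high to MHC class II-high cells. The class II genes H2-Aa, H2-Ab1 and H2-Eb1 together had 0 UMIs in 36 of 82 monocytes of Tdg_WT and 13 of 49 of Tdg_KO, and up to 464 and 633 UMIs per 10000 in the highest. Counted at 10 or more UMIs, 30 monocytes of Tdg_WT (36.6%) and 13 of Tdg_KO (26.5%) were class II-positive, a cut with 8 and 3 monocytes between 5 and 20 UMIs. Ly6c2 stood at 594 and 826 CPM in the class II-positive cells and at 1577 and 1297 in the others. Hp (357 and 93.0 against 1070 and 948) and Ifitm6, an interferon-induced membrane protein gene (207 and 145 against 512 and 603), were also lower in the class II-positive cells of both libraries. Ccr2 differed little, at 609 and 640 against 523 and 614. Flt3, a receptor of dendritic cells, was at 7.52 and 20.7 CPM in the class II-positive cells, and at 63.6 and 69.6 in the type 2 dendritic cells. It had only 4 and 5 UMIs over all monocytes. Itgax stood at 94.0 and 103 CPM in the class II-positive cells against 9.24 and 8.30 in the others. Its level was 86.3 and 125 in the type 2 dendritic cells and 177 and 225 in the C1q macrophages. Clec10a was also higher in the class II-positive cells, at 52.6 and 51.6 against 31.4 and 19.4.

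**Figure D2:**
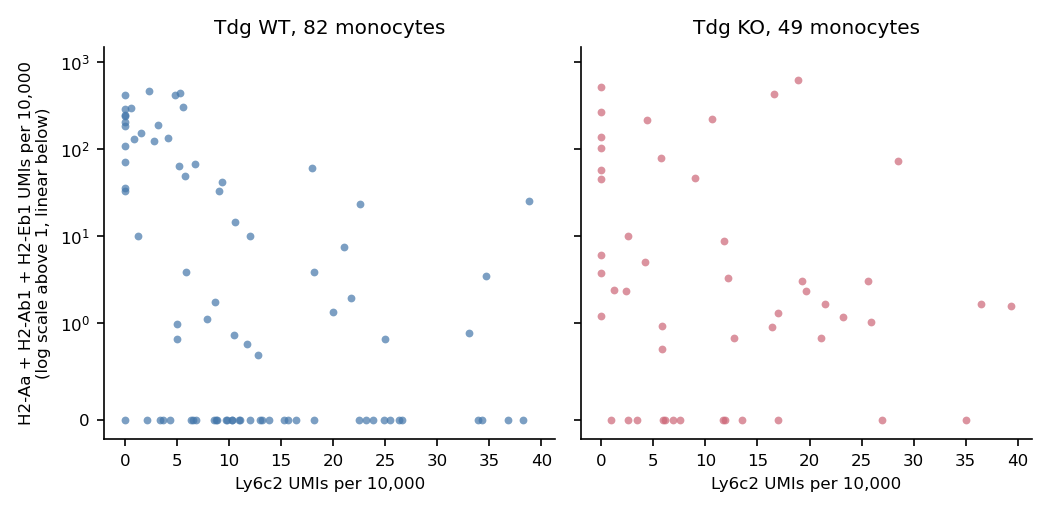
Each point is 1 monocyte, with Ly6c2 UMIs per 10000 UMIs on the x axis and the sum of H2-Aa, H2-Ab1 and H2-Eb1 UMIs per 10000 on the y axis (log scale above 1, linear below), for Tdg_WT (82 monocytes, left) and Tdg_KO (49, right). The cells with the most class II lie mostly at low Ly6c2 in Tdg_WT, while in Tdg_KO 3 of the 5 highest cells lie above 10 Ly6c2 UMIs per 10000.

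Interferon-induced genes were higher in the cells with more Ly6c2, a marker on which the cells were selected, so the relation is given only as a description. Per monocyte, Spearman's rho between Ly6c2 and the summed type I interferon list was 0.66 in Tdg_WT (n = 82) and 0.56 in Tdg_KO (n = 49). Between Ly6c2 and the MHC class II list rho was -0.53 and -0.28, and between the interferon and hypoxia lists -0.73 and -0.39. These values describe cells of 1 library that share its preparation. Depth moved with them: rho of the UMI total with the interferon list was 0.37 and 0.40, and with the class II list -0.41 and -0.37. The summed cytokine list was nearly unrelated to Ly6c2 (-0.03 and 0.14), and followed the pattern receptor list (0.44 and 0.59).

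Between the libraries the core of the monocyte programme differed little. UMIs were summed over the monocytes of each library (807111 and 458451) and expressed as CPM, and 3027 genes had at least 50 UMIs in all. Of these, 235 (7.76%) were at least 1.5-fold lower in Tdg_KO and 287 (9.48%) at least 1.5-fold higher, with a median log2 ratio of -0.01. The classical monocyte list had a median log2 ratio of -0.04, with 0 of its 29 measured genes lower and 1 higher by that measure. F13a1 had a ratio of 0.98 (interval 0.83 to 1.15), Lyz2 0.97 and Spi1, which encodes the master factor PU.1, 1.00 (0.84 to 1.20). The gene past 1.5-fold was Clec4e, the receptor Mincle, at 960 and 1590 CPM (ratio 1.66, 1.49 to 1.83). The transcription factor gene Cebpb was lower, at 4350 and 3097 CPM (0.712, 0.669 to 0.758). Tdg had 10 and 6 UMIs, 12.4 and 13.1 CPM, and with 3′ tags and no label for the deleted part or for the cells that carry it, this checks no label.

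Inflammatory cytokine genes were higher in the monocytes of Tdg_KO. Of 12 measured genes of this list, 9 were at least 1.5-fold higher, against 9.48% of all genes measured, and 0 were lower (7.76% of all genes). The list's median log2 ratio was 0.94, against -0.01 for all genes measured. Without the monocytes that carry genes of another lineage 5 of 9 measured were higher, with a median of 0.59, and without those that carry macrophage genes 4 of 9, with a median of 0.54. Il1b, the interleukin 1 beta precursor, was the most abundant cytokine gene at 8385 and 12370 CPM (ratio 1.48, 1.42 to 1.53), just under the 1.5-fold mark, and its log2 ratio was 0.56, or 0.23 without the monocytes that carry macrophage genes. Per monocyte its median was 77.6 UMIs per 10000 in Tdg_WT (range 0 to 255) and 126 in Tdg_KO (0 to 339), so the cells of the libraries overlapped widely. Il1a stood at 71.9 and 236 CPM (3.28, 2.36 to 4.59). Il1rn, which encodes the receptor antagonist that blocks interleukin 1, was higher as well, at 349 and 971 (2.78, 2.39 to 3.24). Nlrp3, the sensor of the inflammasome that matures interleukin 1 beta, stood at 342 and 561 (1.64, 1.38 to 1.95).

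Tnf was at 115 and 301 CPM (ratio 2.61, 1.99 to 3.44), and the co-stimulatory ligand gene Tnfsf9, which encodes 4-1BBL, at 88.0 and 262 (2.98, 2.20 to 4.05). Il6 was at 98 and 196 (2.01, 1.47 to 2.75), Il18 at 33 and 61 (1.83, 1.04 to 3.22) and Lif at 37 and 65 (1.76, 1.03 to 3.02). Il10, the interleukin that restrains macrophages, was at 38.4 and 157 (4.09, 2.65 to 6.45), in 12 and 14 monocytes. Its log2 ratio was 2.03, and 0.70 without the monocytes that carry genes of another lineage or 0.57 without those that carry macrophage genes. Osm (oncostatin M) and Tgfb1 were the 2 measured cytokine genes with lower values, at 923 and 777 (0.84, 0.74 to 0.96) and at 451 and 390 (0.87, 0.72 to 1.04). Cytokines that promote inflammation and those that oppose it were thus both among the higher genes.

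**Figure D3:**
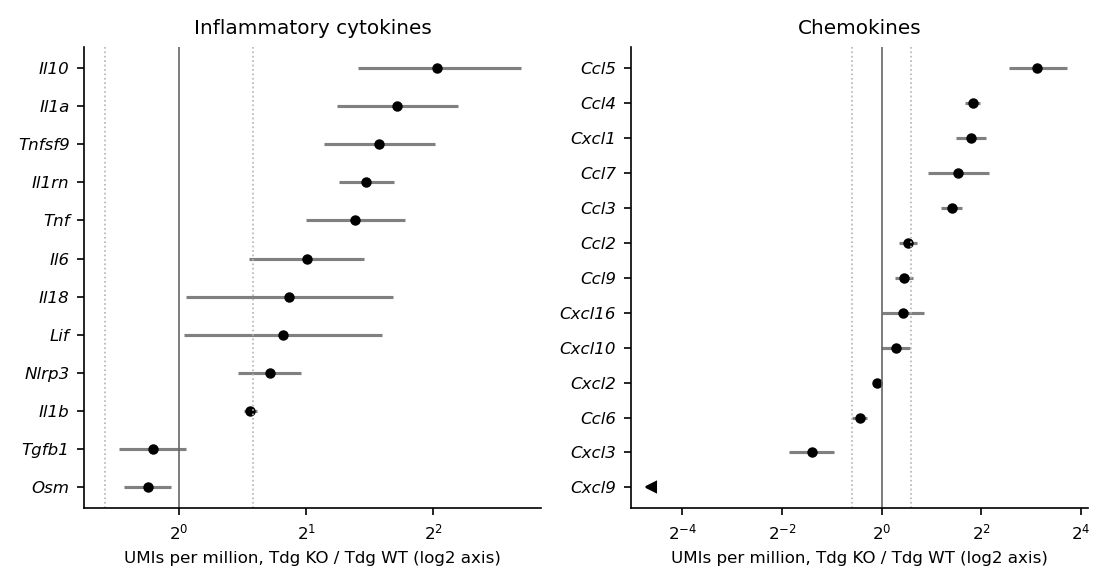
Ratio of CPM in the monocytes, Tdg_KO over Tdg_WT (log2 axis), for the measured inflammatory cytokine (left, 12 genes) and chemokine genes (right, 13 genes), with 95% counting intervals as bars, 1 library a group. Dotted lines mark 1.5-fold in each direction, and the arrowhead for Cxcl9, which had 0 UMIs in Tdg_KO, is a bound. Of the cytokines, 9 lie past the right dotted line, while the chemokines spread from Ccl5 at 8.69 to Cxcl3 at 0.381, with Cxcl9 lower still.

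The shares of monocytes with these transcripts differed less than the levels. Il1rn was detected in 58.5% of monocytes of Tdg_WT (exact interval 47.1% to 69.3%) and 69.4% of Tdg_KO (54.6% to 81.7%). Ptgs2, the prostaglandin synthase COX-2, was detected in 62.2% (50.8% to 72.7%) and 77.6% (63.4% to 88.2%), so both pairs of intervals overlap. With each monocyte thinned to 2000 UMIs (81 and 49 cells, 1 and 0 left out), the shares were 33.3% and 53.1% for Il1rn and 46.9% and 63.3% for Ptgs2. Il1b was detected in 98.8% (93.4% to 99.97%) and 91.8% (80.4% to 97.7%), intervals that overlap, and in 95.1% and 87.8% thinned. Its detected share was thus not higher in Tdg_KO, although the summed level was. In B cells, which should lack these genes, thinned shares were 5.26% and 3.57% for Il1b, 2.63% and 1.43% for Il1rn and 0% in both for Ptgs2 (228 and 140 cells, median depth before thinning 3723 and 3576 UMIs against 10340 and 9977). The 0 counts allow shares of up to 1.32% and 2.14%. Every monocyte share lay above its B cell share.

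**Figure D4:**
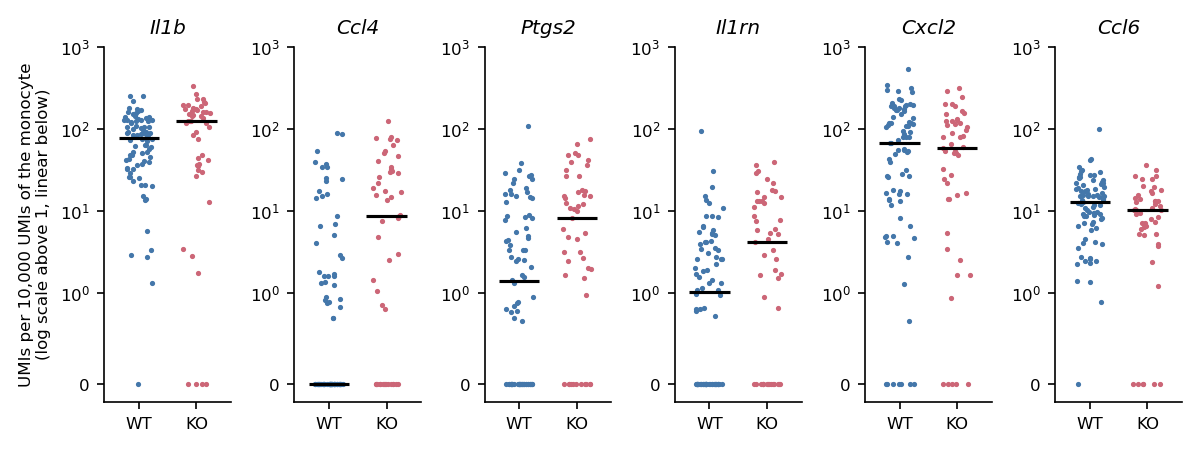
UMIs per 10000 UMIs in each monocyte (y axis, log scale above 1, linear below) for 6 genes in Tdg_WT (blue, 82 cells) and Tdg_KO (red, 49 cells), with black bars at the median. The medians of Il1b, Ccl4, Ptgs2 and Il1rn are higher in Tdg_KO, those of Cxcl2 and Ccl6 are not, and the cells of both libraries overlap in every gene.

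Chemokine genes did not move together. Of 13 measured, 5 were at least 1.5-fold higher (9.48% of all genes) and 2 lower (7.76%), with a median log2 ratio of 0.45. Ccl3 and Ccl4, which draw in T cells and monocytes, were at 400 and 1062 CPM (ratio 2.65, 2.30 to 3.06) and at 676 and 2410 (3.56, 3.21 to 3.95). Ccl4 had a UMI in 37 of 82 monocytes of Tdg_WT and 34 of 49 of Tdg_KO, and its per-cell median was 0 and 8.63 UMIs per 10000. Ccl5, which also draws in T cells, had the highest ratio of the list (8.69, 5.88 to 13.2), with 31 and 153 UMIs, but 140 of the 153 lay in 6 barcodes. Ccl7, a CCR2 ligand, was at 47 and 137 CPM (2.92), and Ccl2 at 740 and 1069 (1.44, 1.28 to 1.63). Ccl6 was lower, at 1463 and 1080 (0.738). The interferon-induced Cxcl9 had 130 UMIs in 3 monocytes of Tdg_WT, 119 of them in 1 cell, and 0 in Tdg_KO, which makes it at least 24.6-fold lower with the floor of 3 counts per library.

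The neutrophil-attracting chemokines Cxcl1, Cxcl2 and Cxcl3 are close relatives in 1 cluster on chromosome 5, and they did not differ alike. Cxcl1 was at 177 and 613 CPM (ratio 3.46, 2.82 to 4.26), Cxcl2 at 9611 and 9063 (0.94, 0.91 to 0.98) and Cxcl3 at 297 and 113 (0.381, 0.277 to 0.517). Cxcl1 was confined to 7 monocytes in each library, 3 of which held 113 of 143 UMIs in Tdg_WT and 241 of 281 in Tdg_KO. Cxcl3 was found in 25 monocytes of Tdg_WT and 7 of Tdg_KO, and without the class II-positive monocytes its log2 ratio was -0.12 in place of -1.39. Since reads of such near relatives can be hard to separate, their values carry that uncertainty.

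These 3 genes are shown with their proximal promoters because all of them hold the same letters of an NF-kB type motif, while Cxcl1 was higher and Cxcl3 lower in Tdg_KO, and Il6 is shown beside them as the cytokine gene with such a match. NF-kB is the transcription factor that Toll-like receptors and interleukin 1 activate. The 100 bases before each start site (RefSeq, build GRCm38.p6) are given, with matches to GGANTTTCC on either strand in capitals. Cxcl1 lies at chr5:90891145-90891244, Cxcl2 at chr5:90903799-90903898, Cxcl3 at chr5:90786001-90786100 and Il6 at chr5:30013014-30013113, all on the + strand.
Cxcl1: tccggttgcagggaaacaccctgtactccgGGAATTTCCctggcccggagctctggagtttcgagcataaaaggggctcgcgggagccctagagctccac
Cxcl2: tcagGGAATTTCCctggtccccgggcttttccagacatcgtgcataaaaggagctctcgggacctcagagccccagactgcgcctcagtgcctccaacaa
Cxcl3: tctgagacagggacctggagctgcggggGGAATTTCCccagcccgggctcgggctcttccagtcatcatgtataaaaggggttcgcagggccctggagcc
Il6: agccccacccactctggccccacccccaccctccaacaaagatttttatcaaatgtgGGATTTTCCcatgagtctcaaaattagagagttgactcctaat
A match within 250 bases before to 50 after a start is held by 4 of the 8 measured chemokine genes that have a promoter there, and by 2 of 9 inflammatory cytokine genes (Il6 and Nlrp3), against 1.45% of all 27025 genes in the promoter table. A match describes letters and shows no binding.

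Genes that sense or relay such signals were in part higher. Of 11 measured pattern recognition genes, 5 were at least 1.5-fold higher (9.48% of all genes) and 1 lower (7.76%), with a median log2 ratio of 0.24. Clec4d, the partner of Mincle, stood at 193 and 338 CPM (ratio 1.75, 1.39 to 2.20) and the adaptor Myd88 at 113 and 172 (1.53, 1.12 to 2.09). Cd14 (1.16) and Tlr2 (1.18) were under the 1.5-fold mark. Rela, a subunit of NF-kB, was at 69.4 and 183 (2.64, 1.86 to 3.77), and its sister Rel at 453 and 604 (1.33, 1.14 to 1.56). The immediate early factor Egr1 stood at 207 and 552 (2.67, 2.18 to 3.26), and Zeb2, which supports monocyte fate, at 550 and 855 (1.55, 1.35 to 1.78), though its log2 ratio was 0.22 without the monocytes that carry macrophage genes. Of 15 measured genes listed for immune suppression, 4 were at least 1.5-fold higher (9.48% of all genes) and 1 lower (7.76%). Ptgs2 (638 and 1544, ratio 2.42, 2.16 to 2.72), Cd274, which encodes PD-L1 (35 and 79, 2.26), Lilr4b (1.52) and Il10 were higher and Vegfa lower. The log2 ratio of Lilr4b was 0.20 without the monocytes that carry macrophage genes.

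Genes of the tissue dissociation and stress response were also higher in Tdg_KO, 13 of 30 by at least 1.5-fold (9.48% of all genes) and 0 lower (7.76%), with a median log2 ratio of 0.46. The heat shock gene Hspa1b stood at 229 and 735 CPM (3.21, 2.67 to 3.86), but 176 of its 185 UMIs in Tdg_WT and 331 of 337 in Tdg_KO lay in 6 barcodes of each library. Without the 6 and 5 monocytes with at least 10 UMIs of Hspa1a and Hspa1b, the list's median was 0.18 and its count of higher genes 7 of 28, while the cytokine median was 0.99 with 9 of 12 higher. Without the monocytes that carry macrophage genes the stress median was 0.76, with 19 of 29 higher. Those heat shock-rich cells had Il1b at 3760 CPM in Tdg_WT and 174 in Tdg_KO. Dusp1, which dampens kinase signalling (944 and 1566, 1.66), and Nfkbiz, a co-factor of NF-kB (279 and 622, 2.23), were among the higher members. Fos (1.03) and Junb (0.88) were not. Per monocyte the cytokine and stress lists were nearly unrelated, with rho 0.13 in Tdg_WT and -0.10 in Tdg_KO.

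Signs of RNA quality moved with the library too. In the monocytes the mitochondrial share of UMIs was 1.82% and 2.27%, the ribosomal protein share 19.96% and 18.31%, and the nuclear RNA Malat1 stood at 6314 and 8540 CPM. Malat1 was also higher in Tdg_KO in the C1q macrophages (3628 and 6530) and the type 2 dendritic cells (5489 and 7068). The part of these differences, of the stress genes and of the neutrophil and macrophage genes in the cytokine result was not tested. Within the alternatives run, the cytokine median stayed between 0.54 and 1.20, and it was 0.78 in the monocytes with under 10 class II UMIs and also 0.78 in those with more.

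Type I interferon genes were higher in part. Of 18 measured, 6 were at least 1.5-fold higher (9.48% of all genes) and 0 lower (7.76%), with a median log2 ratio of 0.36, and 3 of those 6 belong to the Ifi200 family, which includes DNA sensors. Ifi203 was at 318 and 617 CPM (ratio 1.94, 1.63 to 2.30), Ifi204 at 339 and 556 (1.64, 1.38 to 1.95) and Ifi211 at 252 and 386 (1.53, 1.25 to 1.89). Slfn5 stood at 187 and 312 (1.67, 1.32 to 2.11), Trim30a at 115 and 185 (1.61, 1.18 to 2.18) and the antiviral gene Oasl2 at 45.8 and 72.0 (1.57, 0.95 to 2.58). Other measured antiviral genes were not past the mark, among them Isg15 at 161 and 205 (1.27, 0.97 to 1.67), Irf7 at 120 and 140 (1.16), Ifitm3 at 4602 and 4242 (0.92) and Oas1a at 76.8 and 52.3 (0.68, 0.41 to 1.11). The family members are similar in sequence, which limits how far their reads can be told apart.

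This result depended on the selection. When the rule was applied to barcodes thinned to 2000 UMIs, the median of the interferon list was -0.37 and the log2 ratios of Ifi204 and Slfn5 were -0.12 and -0.37. That selection kept 42 of 82 and 25 of 49 monocytes and let in 9 and 11 other barcodes, of which 6 and 11 held more than 1 Cd3 UMI before thinning. Without monocytes carrying genes of another lineage, the log2 ratio of Ifi203 was 0.31 in place of 0.96. Without those carrying macrophage genes, Ifi204 was at 0.49 and Ifi211 at 0.46, both under the 1.5-fold mark.

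The promoters of Ifi211 and Trim30a are shown because they carry the letters of an interferon-stimulated response element, GAAANNGAA, close to the start. Interferons activate transcription through this element. The 100 bases before each RefSeq start (GRCm38.p6) lie at chr1:173913047-173913146 and chr7:104465194-104465293, both on the - strand, with the match on either strand in capitals.
Ifi211: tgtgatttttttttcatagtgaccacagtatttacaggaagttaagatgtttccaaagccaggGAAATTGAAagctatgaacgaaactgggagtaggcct
Trim30a: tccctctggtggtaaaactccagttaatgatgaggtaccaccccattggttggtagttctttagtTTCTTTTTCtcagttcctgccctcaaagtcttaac
Of 14 measured interferon list genes with a promoter in the table, 10 hold a match, against 9.76% of all genes in the promoter table. Matches of different motifs searched overlapped in 15 promoters. Isg15, Oas1a and Ifitm3, which were not 1.5-fold higher, are among the 10.

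Genes of the response to interferon gamma had ratios in both directions in the monocytes. Of 11 measured, 3 were at least 1.5-fold higher (9.48% of all genes) and 2 lower (7.76%), with a median log2 ratio of 0.13. No count is given for the C1q macrophages, where many genes of this list had few UMIs in Tdg_WT and passed the minimum only through Tdg_KO. The guanylate-binding protein gene Gbp2 was at 53 and 24 CPM in the monocytes (0.45, 0.21 to 0.89), on only 43 and 11 UMIs. The other lower gene was Cxcl9, with 119 of its 130 UMIs of Tdg_WT in 1 cell. Irf1 was at 58 and 89 (1.54, 0.99 to 2.39), on 47 and 41 UMIs. For the same reason no macrophage values are set beside these, and no difference between the populations was tested.

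The cytokine list also had its own value in each population. In the C1q macrophages 2 of 8 measured genes were at least 1.5-fold higher (15.2% of all genes there), with a median log2 ratio of -0.24. In type 2 dendritic cells 0 of 7 were higher (9.13% of all genes), with a median of -0.11, and in neutrophils 0 of 9 (19.3%), with a median of -0.12. Il1b stood at 3012 and 2189 CPM in the macrophages, 8533 and 7670 in the dendritic cells and 13414 and 12338 in the neutrophils, all lower in Tdg_KO, against 8385 and 12370 in the monocytes. The 2 genes counted as higher in the macrophages were Tnf (33 and 73, ratio 2.18, on 13 and 78 UMIs) and Il1a (92 and 163, ratio 1.76, on 36 and 174 UMIs). Both passed the UMI minimum only through Tdg_KO. That count is therefore given only as a description, and no likeness to the monocytes is drawn from it. The stress list was on the higher side in all 4 populations, with medians of 0.46 in monocytes, 0.73 in macrophages, 0.38 in dendritic cells and 0.38 in neutrophils. These differences between populations were not tested, and the measured genes differ between them.

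**Figure D5:**
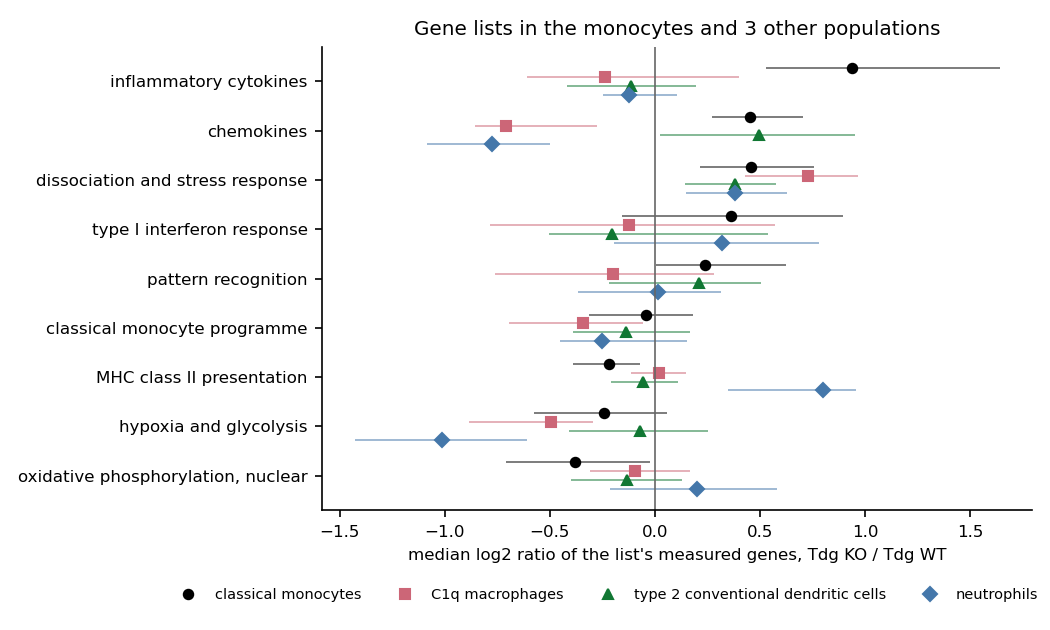
Median log2 ratio of CPM, Tdg_KO over Tdg_WT (x axis), over the measured genes of 9 lists (y axis) in the monocytes (black circles), C1q macrophages (red squares), type 2 conventional dendritic cells (green triangles) and neutrophils (blue diamonds), 1 library a group. Bars run from the median of the genes' lower to the median of their upper 95% counting bounds; the cytokine list is at 0.94 in the monocytes and between -0.24 and -0.11 elsewhere.

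Genes of antigen presentation by MHC class II moved in both directions. The list's median log2 ratio was -0.22 over 11 genes, with 1 lower (7.76% of all genes) and 2 higher (9.48%) by 1.5-fold. H2-Aa stood at 1808 and 1416 CPM (0.783, 0.713 to 0.860) and Cd74 at 4168 and 3597 (0.863). The co-stimulatory genes Cd40 (43 and 98, 2.26, 1.42 to 3.63) and Cd86 (140 and 218, 1.56) were the higher ones and Cd80 the lower (67 and 41, 0.62, 0.35 to 1.06). With every monocyte weighted equally the median was -0.03.

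Of the hypoxia and glycolysis genes, 6 of 23 were lower by at least 1.5-fold against 7.76% of all genes, and 1 higher (9.48%), with a median log2 ratio of -0.24. Without the monocytes that carry macrophage genes the median was 0.05. Vegfa, the angiogenic factor induced by low oxygen, stood at 188 and 76.3 CPM (0.405, 0.272 to 0.589). The lactate exporter gene Slc16a3 was at 245 and 144 (0.59, 0.44 to 0.78) and the glycolytic enzyme gene Eno1 at 463 and 286 (0.62, 0.50 to 0.75). Slc2a1, the glucose transporter (1.04), and Pgk1 (0.99) were near equal, and P4ha1 was higher (35 and 65, 1.89, 1.09 to 3.28). The letters ACGTG, the core to which hypoxia-inducible factors bind, occur on either strand in the promoters of 16 of 20 measured genes of the list, against 21.8% of all genes in the promoter table, and P4ha1 and Vegfa are both among the 16. The list was lower in the C1q macrophages (median -0.50) and the neutrophils (-1.01) too, but near 0 in the type 2 dendritic cells (-0.07). Nuclear genes of oxidative phosphorylation had a median of -0.38, with 3 of 26 lower by 1.5-fold, a share near the 7.76% of all genes, and 0 higher. The whole counting interval lay below 1 for 17 of the 26 and above 1 for 0, against 359 and 368 of all 3027 genes. The list's median stayed between -0.45 and -0.31 over 17 alternatives. It was -0.10 in the C1q macrophages, -0.13 in the type 2 dendritic cells and 0.20 in the neutrophils. Cox8a was at 1189 and 781 (0.657, 0.580 to 0.742), Cox7c at 839 and 543 (0.648) and Ndufc1 at 201 and 113 (0.565). Without the monocytes that carry macrophage genes, the log2 ratio of Cox7c was -0.40 and that of Ndufc1 -0.55, both short of 1.5-fold.

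Among genes ranked by the interval bound nearest to 1, the 15 leading lower genes had ratios from 0.0777 to 0.604. Tmsb10, an actin-binding thymosin, was at 4875 and 2947 CPM (0.604, 0.568 to 0.643) and detected in 82 of 82 and 48 of 49 monocytes, with a log2 ratio of -0.73, or -0.51 without the monocytes that carry macrophage genes. The galectin gene Lgals1 stood at 662 and 353 (0.534, 0.445 to 0.638). Id3, an inhibitor of basic helix-loop-helix factors, was at 211 and 78.5 (0.373, 0.253 to 0.537). The histone gene Hist1h2bc had the lowest ratio, with 68 and 3 UMIs (0.0777, 0.0156 to 0.237). Cenpa, the centromeric histone variant, stood at 61.9 and 13.1 and the beta-tubulin gene Tubb5 at 78.1 and 28.4. Serpinb1a had 66 and 7 UMIs, but 44 of the 66 lay in 1 barcode. Cxcl3, Vegfa, Lfng, Got1, Rsrc2, Ccdc59, Gstp1 and Parl completed the 15, with ratios from 0.338 to 0.440.

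The 15 leading higher genes were Ccl5, Areg, Ccl4, Cxcl1, S100a8, Hspa1b, Il10, Il1rn, Il1a, Dnajb1, Ccl3, Marcksl1, Tnfsf9, Egr1 and Ptgs2. Marcksl1, a regulator of actin, stood at 201 and 548 CPM (2.73, 2.23 to 3.34) in 46 and 38 monocytes. Areg, the growth factor amphiregulin, had 39 and 130 UMIs in 9 and 8 monocytes, and its log2 ratio was 2.55, or 0.03 without the monocytes that carry genes of another lineage. S100a8 had 42 and 95 UMIs, 89 of the 95 in 1 barcode, and without the top barcode of each library its log2 ratio was -0.77. Its neutrophil partner S100a9, named after its values were seen, had 171 of 172 UMIs of Tdg_KO in 1 barcode. Dnajb1 was at 40.9 and 148 (3.63, 2.36 to 5.68), and its log2 ratio was 0.33 without the heat shock-rich monocytes.

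Whole-library depth differed, with a median of 5378 UMIs per kept barcode in Tdg_WT and 6419 in Tdg_KO, but the monocytes were of like depth, at 10340 and 9977. Because 1 library stands for each group, genotype cannot be told apart from animal, tumour, dissociation or library preparation.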

How the data were processed

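Raw UMI counts per gene and barcode were deposited by the authors, made with Cell Ranger 6.0.1 per the file headers; the submitters' processing notes also name Seurat and mm10, without their roles. Annotation and counting settings were not given in the sources used here. Entries sharing a symbol were summed (78 of 32285). The rule left 131 monocytes; doublets were limited only by its lineage criteria. Counts were summed per library and divided by the total. Ratios have exact conditional Poisson and shares exact Clopper-Pearson intervals (95%), checked on simulated counts. A gene was measured with at least 50 UMIs in all; a library at 0 was set to a floor of 3 counts. Named genes needed 50 UMIs and detection in 10% of monocytes in their higher library, and were the 15 each way whose interval bound nearest 1 lay farthest out; mitochondrial, ribosomal, globin, antigen receptor, sex-linked and rule genes and unnamed models were left out. Added to these were Tdg and, per list, the 4 genes with most UMIs and 2 with the most extreme ratios; other genes were picked from the lists after their values were seen. The monocytes and all lists were chosen with earlier results of these data known. Python 3.11.15, scipy 1.17.1, numpy 2.4.6 and pandas 2.3.3 were used. Alternatives varied the rule, cell filter, depth, weighting, scaling, UMI minimum and fold. Some genes of the lists are not reported here.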

Additional observations from a re-analysis of the deposited data

Results flagged for a closer look

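The median of the chemokine list differed in direction between the monocytes and the C1q macrophages of the same 2 libraries. As a log2 ratio, Tdg_KO over Tdg_WT, it was 0.45 in the monocytes (13 measured genes) and -0.71 in the macrophages (17). The rise was not particular to the monocytes, with a median of 0.49 in the type 2 dendritic cells (11) and -0.78 in the neutrophils (10). Genes within the list did not move together. The whole counting interval lay below 1 for 4 genes and above 1 for 8 in the monocytes, and for 11 and 3 in the macrophages. Over all genes measured it lay below 1 for 359 and above 1 for 368 of 3027 in the monocytes. In the macrophages these counts were 412 and 401 of 3211. Ccl4 stood at 676 and 2410 CPM in the monocytes and at 1723 and 993 in the macrophages, Ccl7 at 47 and 137 against 377 and 122, and Ccl5 at 38.4 and 334 against 709 and 419. Cxcl3 was lower in both populations (0.38 and 0.36). Cxcl1 had ratios of 3.46 and 3.68. In the macrophages it had 17 UMIs in Tdg_WT and 172 in Tdg_KO and passed the UMI minimum only through Tdg_KO, so no likeness is drawn from it. The difference between the populations was not tested, since each group is 1 library.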

How the results depend on the processing

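No paired analysis was possible because each group holds 1 library, and for the same reason no replicate could be left out. Of 135 named genes, 51 had a log2 ratio of the other sign under at least 1 of up to 17 alternatives. Among the 57 past 1.5-fold, 6 did so: S100a8 (log2 -2.48 without monocytes with genes of another lineage, -0.77 without each gene's top monocyte), Adam8 (0.0098 without monocytes with genes of another lineage), Hspa1b (-0.11), Ifi204 (-0.12) and Slfn5 (-0.37) with the rule on thinned barcodes, and Serpinb1a (0.22 without class II-positive monocytes). Genes at least 1.5-fold lower and higher numbered 56 and 75 with monocytes thinned, 650 and 692 at 20 UMIs, 81 and 136 at 100 UMIs, and 46 and 73 at 2-fold; without monocytes with genes of another lineage 154 were lower, and without those with macrophage genes 119 and 183 were lower and higher. Without each gene's top monocyte the balance turned, with 322 genes lower and 247 higher, against 235 and 287 in the main result. Thinning the barcodes before the rule gave medians of -0.31 (classical monocyte list), 0.13 (stress, with 7 higher), -0.37 (type I interferon) and -0.0500 (class II). The class II median was -0.0337 with equal weights, -0.014 without heat shock-rich monocytes and 0.32 without class II-positive ones, by construction. The stress median without heat shock-rich monocytes was 0.18, with 7 higher, and 0.76 without monocytes with macrophage genes. Higher cytokine genes numbered 5 of 9 measured without monocytes with genes of another lineage, 4 of 9 without those with macrophage genes and 3 of 6 with monocytes thinned. The cytokine median stayed between 0.54 and 1.20 and the hypoxia median between -0.28 and 0.05. The ratio of monocyte shares stayed between 0.527 and 0.648 over 8 alternatives, none of which relaxed the Cd3 limit. The exclusion of monocytes with macrophage genes, of heat shock-rich and class II-positive monocytes and of top monocytes, and the counts within lists, were chosen after seeing the data. With 458451 UMIs in the Tdg_KO monocytes, a gene needs over 6.54 CPM to pass the floor of 3 counts, so rarer genes could not be compared.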

Other observations

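Further gene groups differed little between the monocytes of the libraries. None of the 17 measured adhesion genes, the 20 receptor genes for chemoattractants and growth factors and the 17 Fc receptor genes was past 1.5-fold. Of all genes, 7.76% were lower and 9.48% higher. The medians of the 3 lists were 0.03, 0.11 and -0.11 on the log2 scale. In the same order, the whole counting interval lay below 1 for 0, 1 and 3 genes and above 1 for 3, 2 and 0. Vim stood at 4538 and 5137 CPM, and Ccrl2, a chemerin receptor, at 380 and 561 (ratio 1.47, 1.24 to 1.75). Of 22 lysosomal genes 1 was lower (7.76% of all genes) and 0 higher (9.48%). The lower one was the protease gene Ctsl, at 208 and 109 (0.524, 0.374 to 0.722). Ctsb, another lysosomal protease, was at 711 and 984 (1.38).

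Of 13 measured genes of the passage from monocyte to macrophage, 1 was lower (7.76% of all genes) and 2 higher (9.48%), counts near those shares. Apoe, the lipid carrier that marks many tumour macrophages, was at 1161 and 2055 CPM (1.77, 1.62 to 1.94), in 62 of 82 and 42 of 49 monocytes. It stood at 15355 and 17847 in the C1q macrophages, and at 662 and 1202 in all other kept barcodes. Mrc1, the mannose receptor, was at 42.1 and 120, with 34 of its 55 UMIs of Tdg_KO in 1 barcode. Trem2 (0.83, 0.51 to 1.34) and Adgre1, which encodes F4/80 (1.07, 0.74 to 1.54), did not pass 1.5-fold. Slc7a11, the cystine importer, was at 223 and 445 (1.995, 1.62 to 2.45), and the mitochondrial dismutase gene Sod2 at 364 and 556 (1.53).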
